A study of Macaca mulatta with 24 samples.

Results

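The results below describe 8 voltage-gated potassium channel genes in the nucleus accumbens core (NAcc) of rhesus macaques. They include the delayed rectifier genes *KCNA1*, *KCNA2* and *KCNC1*, and *KCNA4*, whose subunit inactivates quickly. The others are the M-type genes *KCNQ3* and *KCNQ5*, and the ether-a-go-go (EAG) family genes *KCNH1* and *KCNH7*. All genes of the set were picked by gene symbol, and all 8 had a value among the 17208 genes of the deposited expression table. RNA-Seq had been run once on each of 24 unrelated adult males. The animals were 8 controls, 8 low or binge drinkers (LD*, all labelled LD) and 8 heavy drinkers (HD*), of which 4 were labelled heavy (HD) and 4 very heavy (VHD). Drinkers had been induced to drink 4% ethanol by schedule-induced polydipsia, at 0.5, 1.0 and then 1.5 g/kg per day, and then chose freely between ethanol and water for 22 h per day over 12 months. Controls underwent the same procedures with water from both spouts and were given a 10% maltose dextrin solution to match calories. Tissue was taken without an imposed abstinence, and drinking categories were reached by each animal's own intake and were not assigned. Daily intake was 0.47 to 2.07 g/kg in LD*, 2.74 to 3.09 g/kg in HD and 3.09 to 3.78 g/kg in VHD animals. The animals came from cohorts named 4, 5, 7a and 7b, and HD* animals and controls occurred together only in cohorts 5 and 7a, where each category of HD* had 2 animals per cohort.

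Potassium channels of these families open when a neuron depolarizes and set how readily and how fast it fires. Kv1 subunits, encoded by the KCNA genes, sit largely on axons and limit spike initiation and transmitter release, and Kv3 subunits, encoded by the KCNC genes, let neurons repolarize quickly enough to fire at high rates. Kv7 subunits, encoded by the KCNQ genes, form the M-current, a slow brake on firing that closes when muscarinic acetylcholine receptors are active. Most neurons of the NAcc core are GABAergic projection neurons (medium spiny neurons) that carry dopamine receptors, with a minority of interneurons.

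The values were taken as TPM, which correct abundance for gene length and scale each animal to a common total. Levels are compared between genes on that reading. Read counts cannot be recovered and no counting error can be given. Markers of all 9 cell types looked at were present, among them all 14 of striatal projection neurons, the defining cells of the labelled tissue. One control animal of cohort 7b (control 6) stood apart. Its projection neuron markers summed to 901 TPM against 3259 to 14471 TPM in the other 23 animals, and its 12 oligodendrocyte markers summed to 10613 TPM against 1818 to 7077 TPM. Markers of cortical excitatory neurons varied most, from 1.42 to 877 TPM in sum. In bulk tissue, fewer cells of a type and less RNA per cell cannot be told apart.

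*KCNA4* was the most abundant of the 8 transcripts and *KCNH7* the least. *KCNA4*, which encodes a Kv1 subunit that inactivates quickly, averaged 66.7 ± 35.4 TPM (mean ± SD, n = 24). *KCNQ5*, *KCNQ3* and *KCNA1* followed at 41.3 ± 22.6, 38.2 ± 7.38 and 35.9 ± 18.1 TPM. *KCNA2*, whose Kv1 subunit often shares channels with that of *KCNA1*, averaged 20.2 ± 8.45 TPM and *KCNC1*, the Kv3 gene typical of fast-spiking interneurons, 18.1 ± 4.90 TPM. *KCNH1*, the founding EAG channel, averaged 10.2 ± 4.24 TPM. *KCNH7*, an ERG-type member of the same family, averaged 0.498 ± 0.317 TPM and never exceeded 1.50 TPM. Within animals, *KCNA4* exceeded *KCNQ5* in 24 of 24, *KCNA1* exceeded *KCNA2* in 22 of 24, *KCNC1* exceeded *KCNH1* in 24 of 24 and *KCNH1* exceeded *KCNH7* in 24 of 24 (two-sided sign-flip permutation tests of neighbours, Benjamini-Hochberg over 7 pairs, adjusted p of 0.00019 or less). The same permutation tests did not separate *KCNQ5* from *KCNQ3* (higher in 12 of 24, adjusted p = 0.454), *KCNQ3* from *KCNA1* (13 of 24, adjusted p = 0.0975) or *KCNA2* from *KCNC1* (15 of 24, adjusted p = 0.451).

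The spread between animals differed greatly among the genes. The highest animal exceeded the lowest 21.5-fold for *KCNQ5*, 16.6-fold for *KCNA4* and 16.2-fold for *KCNA1*, but 2.49-fold for *KCNQ3* and 3.00-fold for *KCNC1*. Without control 6 these folds were 7.57, 7.32, 5.57, 1.83 and 2.87 in the same order. Control 6 held the minimum of *KCNA1* (4.15 TPM), *KCNA4* (7.59 TPM), *KCNQ5* (4.00 TPM), *KCNQ3* (20.3 TPM) and *KCNH1* (3.68 TPM). The same animal held the maximum of *KCNC1*, at 26.9 TPM. The order of mean levels was the same in controls and LD* animals, whereas in VHD animals *KCNQ3* came before *KCNA4*.

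**Figure D1:**
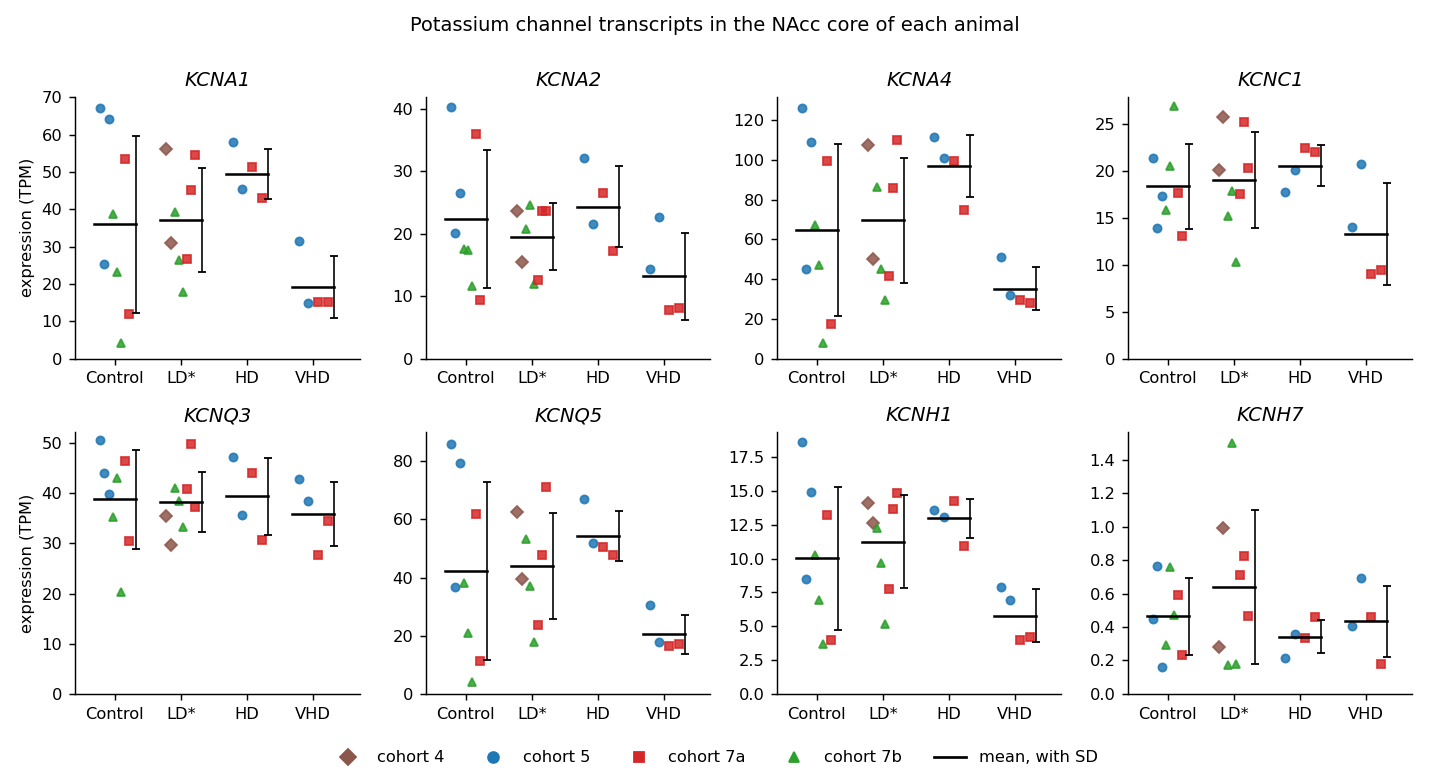
Each panel shows 1 gene, with TPM on a linear axis from 0 and 1 point per animal in the control, LD*, HD and VHD groups (8, 8, 4 and 4 animals). Colors and symbols mark the cohorts, and black lines give the group mean with the SD. All 4 VHD animals lie below all 4 HD animals for *KCNA1*, *KCNA4*, *KCNQ5* and *KCNH1*, while controls spread across both ranges.

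Within the HD* group, 4 of these genes were lower in VHD than in HD animals by 1.08 to 1.46 on the log2 scale, namely *KCNA1*, *KCNA4*, *KCNQ5* and *KCNH1*. *KCNQ3* was not called, and no gene of the 8 was higher in VHD animals at the threshold. The comparison asks whether the 2 categories that make up HD* are alike. Of the 7 genes that passed the filter of a mean of 1 TPM, 4 had an adjusted p under 0.05, all lower (limma on log2(TPM + 1), Benjamini-Hochberg over 13637 genes). Across all genes tested, 14.6% passed, with 11.4% lower and 3.23% higher. At an unadjusted p under 0.05, 6 of the 7 passed, against 32.7% of all genes.

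Among the Kv1 genes, *KCNA1* stood at 58.1, 45.5, 51.4 and 43.1 TPM in the HD animals and at 31.6, 14.9, 15.1 and 15.3 TPM in the VHD animals. The groups did not overlap, and VHD animal 1 was closest to the HD range. The difference was −1.38 (SE 0.23, adjusted p = 0.0064), which is 2.61-fold lower on the scale of TPM + 1. *KCNA4* was at 112, 101, 99.4 and 74.9 TPM in HD and at 51.3, 31.9, 29.5 and 27.9 TPM in VHD animals. Again no VHD animal reached the lowest HD animal. Its difference was the largest of the 8 genes, at −1.46 (SE 0.20, adjusted p = 0.00363). *KCNA2* was at 32.2, 21.5, 26.5 and 17.3 TPM in HD and at 14.3, 22.6, 7.72 and 8.17 TPM in VHD animals. VHD animal 2 lay inside the HD range. The difference of −0.92 (95% confidence interval −1.60 to −0.25) did not pass (adjusted p = 0.065), but it did without VHD animal 2 (−1.21, adjusted p = 0.0058) and with cohort as a covariate (adjusted p = 0.0229). Those settings called 4651 and 2757 of all genes, against 1997 in the main fit. Leaving out VHD animal 3 instead gave −0.73, and the largest adjusted p with an animal left out was 0.198.

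*KCNC1*, the Kv3 gene, was at 17.7, 20.0, 22.5 and 22.0 TPM in HD and at 14.0, 20.7, 8.97 and 9.41 TPM in VHD animals. The overlap came from VHD animal 2 of cohort 5. The difference of −0.66 (95% confidence interval −1.20 to −0.13) did not pass (adjusted p = 0.0854), but it did without VHD animal 2 (−0.89, adjusted p = 0.0064), where 4651 of all genes were called against 1997 in the main fit. Leaving out VHD animal 3 instead gave −0.52, and the largest adjusted p with an animal left out was 0.245.

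The M-type genes parted. *KCNQ5* was at 66.9, 52.1, 50.5 and 47.7 TPM in HD and at 30.7, 17.8, 16.4 and 17.3 TPM in VHD animals, with no overlap. Its difference was −1.39 (SE 0.21, adjusted p = 0.00435). *KCNQ3* was at 47.2, 35.6, 44.0 and 30.7 TPM in HD and at 42.8, 38.5, 27.7 and 34.5 TPM in VHD animals. These ranges overlapped almost fully, and the difference of −0.13 had a 95% confidence interval of −0.53 to 0.28 (adjusted p = 0.66). As a description chosen after the values were seen, the TPM ratio of *KCNQ5* to *KCNQ3* was 1.15 to 1.55 in the 4 HD animals, 0.461 to 0.716 in the 4 VHD animals and 0.197 to 1.99 in the controls.

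Of the EAG family genes, *KCNH1* was at 13.6, 13.1, 14.2 and 11.0 TPM in HD and at 7.90, 6.96, 4.02 and 4.22 TPM in VHD animals. The groups did not overlap. Its difference was −1.08 (SE 0.23, adjusted p = 0.0129), and the call was lost without HD animal 3 (adjusted p = 0.0515) or VHD animal 3 (adjusted p = 0.0585). *KCNH7* was at 0.217, 0.357, 0.333 and 0.462 TPM in HD and at 0.405, 0.696, 0.462 and 0.179 TPM in VHD animals. At such levels the order of the animals carries little weight. It was tested only without the filter, among 17208 genes, with a difference of 0.088 (adjusted p = 0.646).

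**Figure D2:**
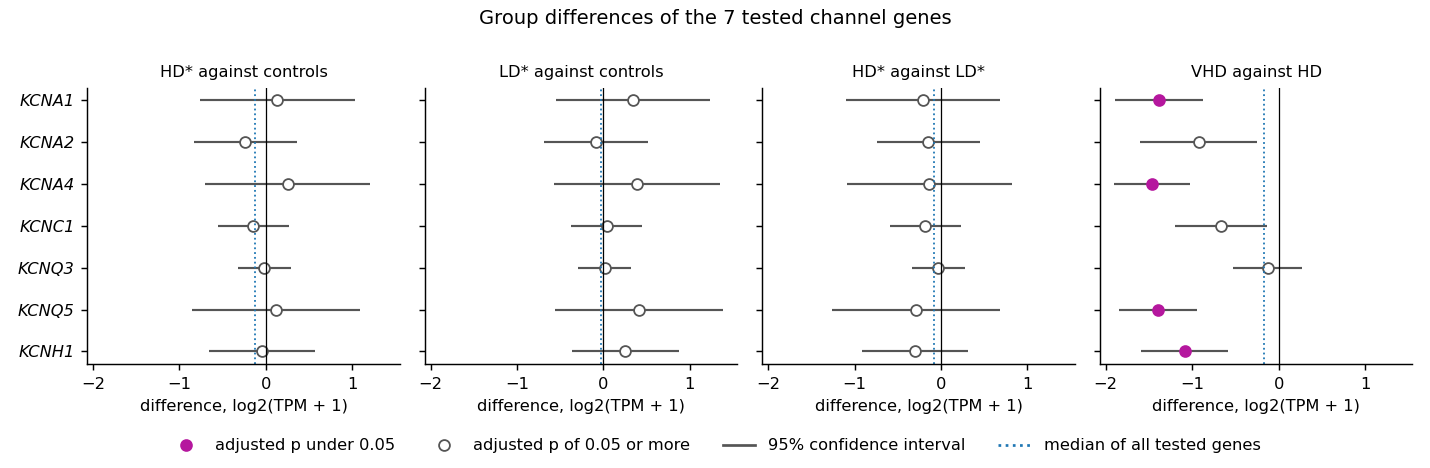
Differences in mean log2(TPM + 1) with 95% confidence intervals for the 7 tested genes in 4 comparisons, with filled points where the adjusted p was under 0.05 and a dotted line at the median of all tested genes. Only the VHD against HD panel holds filled points (*KCNA1*, *KCNA4*, *KCNQ5* and *KCNH1*, −1.08 to −1.46), and the intervals of the comparisons with controls cross 0.

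No VHD animal reached the HD range for 4 of the 8 genes, whereas 17.9% of all genes tested were lower without overlap and 5.39% higher. Within cohort 5 (2 against 2 animals) the same 4 genes were lower without overlap, against 25.5% of all genes, and *KCNH7* was higher, as were 21.3%. Within cohort 7a 6 of the 8 were, against 55.2% of all genes lower and 13.9% higher, so the count in that cohort is near the background. The difference of *KCNA1* was −1.20 in cohort 5 and −1.57 in cohort 7a, and that of *KCNQ5* −1.30 and −1.49. *KCNC1* differed by −0.14 in cohort 5 and by −1.19 in cohort 7a. The median over all genes was −0.17. TMM rescaling (trimmed mean of M-values, a scaling between animals that sets extreme genes aside) moved it to −0.019, with 1583 genes lower and 1065 higher in place of 1556 and 441. Under that rescaling the differences were −1.21 for *KCNA1*, −1.29 for *KCNA4*, −1.22 for *KCNQ5* and −0.93 for *KCNH1*, all with an adjusted p of at most 0.013, and *KCNQ3* turned to 0.046.

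Cell type markers moved with this comparison. Of 14 projection neuron markers, 13 were lower in VHD animals and *TAC1* was not called, with a median difference of −1.16. The marker score (mean centred log2(TPM + 1) of the list) was 0.55 to 0.86 in HD and −0.80 to −0.042 in VHD animals, and the markers summed to 11007 to 12776 TPM and to 4171 to 7450 TPM. Of 10 general neuron markers 4 were lower, of 10 microglia markers 5 were higher and of 10 astrocyte markers 2 were higher (*GFAP* and *S100B*). Of 12 oligodendrocyte markers only *MBP* was called, and it was higher. Of these 12, however, 8 had a difference below 0, and the list's median was −0.19, against −0.17 over all genes. None of the interneuron, oligodendrocyte precursor, endothelial or cortical excitatory markers was called. The 6 cortical excitatory markers had a median difference of −1.19, with sums of 1.42 to 245 TPM in HD and 2.32 to 23.1 TPM in VHD animals, and the 3 oligodendrocyte precursor markers one of −0.49. Microglia markers summed to 349 to 451 TPM in HD and 458 to 787 TPM in VHD animals, and astrocyte markers to 4479 to 6472 TPM and 8262 to 11873 TPM. The scores of these lists overlapped, however. Astrocyte scores were −0.61 to −0.049 in HD and −0.14 to 0.64 in VHD animals, and microglia scores −0.43 to −0.0032 and −0.10 to 0.56. The part of the markers in the differences of the channel genes was not tested.

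Other genes of the channel families and their partners were lower in VHD animals in 4 of 6 lists, and no difference between lists was tested. The lists are short, and the background for a lower call is the 11.4% of all genes given above. Of the 6 tested Kv1 genes outside the 8, 1 was called. *KCNAB1*, which encodes a Kv1 beta subunit, was lower in VHD animals (128.6 ± 32.7 TPM in HD, 57.5 ± 10.7 TPM in VHD, difference −1.13, adjusted p = 0.0062). *KCNAB2*, the most abundant of that list, was not called (223 ± 3.92 and 258 ± 44.0 TPM, adjusted p = 0.346). Of 12 tested Kv2, Kv3 and modifier genes, 5 were lower and none higher. Among them were *KCNB2* (−0.92), which encodes a Kv2 delayed rectifier, and *KCNF1* and *KCNV1* (−0.91 and −1.32), whose subunits are silent alone and modify Kv2 channels. The list's median was −0.77.

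The 4 tested Kv7 and KCNE genes held no call, with a median of 0.23. *KCNQ1*, a Kv7 gene best known from the heart, was at 2.09 ± 0.369 TPM in HD and 3.91 ± 1.45 TPM in VHD animals (difference 0.62, adjusted p = 0.106). Of the 4 tested Kv10 to Kv12 genes none was called either, with a median of 0.040, and *KCNH3* was at 123 ± 11.5 and 132 ± 51.3 TPM.

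Partners of Kv1 and Kv7 channels on axons were lower in 6 of 10 cases, with a median of −0.74. *LGI1*, a secreted epilepsy protein, differed by −0.80 and its receptors *ADAM22* and *ADAM23* by −1.13 and −1.06. *CNTNAP2*, which gathers Kv1 channels beside the nodes of myelinated axons, differed by −0.92, and *ANK3* and *SPTBN4*, scaffolds of the axon initial segment, by −0.79 and −0.63. The scaffold *DLG4* was not called (459 ± 24.5 and 446 ± 105 TPM). Of 9 genes that regulate the M-current 3 were lower, with a median of −0.50. They were the muscarinic receptor *CHRM1* (−1.12), the phospholipase *PLCB1* (−1.23) and the calmodulin gene *CALM3* (−0.56), with adjusted p-values of 0.0042, 0.0086 and 0.027.

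**Figure D3:**
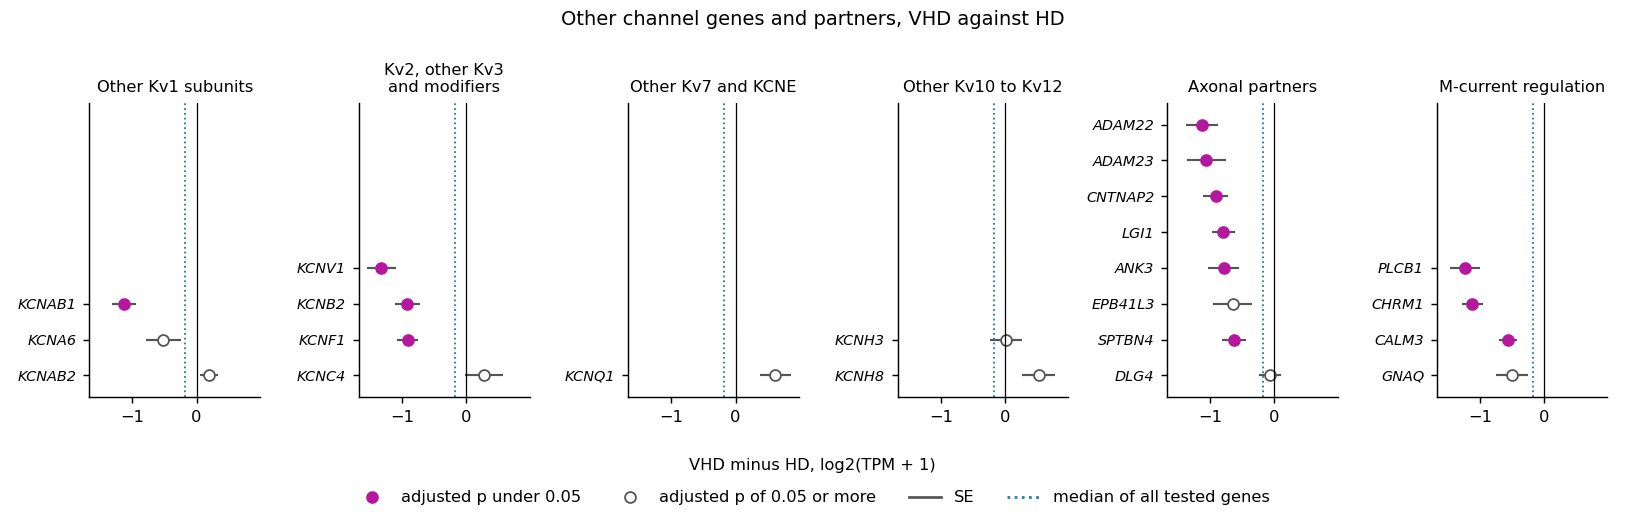
VHD minus HD difference in mean log2(TPM + 1), with its SE, for genes picked from 6 lists of related channel genes and partners (those called, the most abundant and the one of smallest p in HD* against controls, less those not reported here), filled where the adjusted p was under 0.05. Filled points lie left of 0 in 4 lists (*KCNAB1* among the Kv1 genes, for example), and the Kv7 and KCNE and the Kv10 to Kv12 lists hold none.

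No difference between HD* animals as a whole and controls passed the test for any of the 8 genes. None of the 7 tested passed, and none of the 13637 genes did (0%), with a smallest adjusted p of 0.706. At an unadjusted p under 0.05, none of the 7 passed either, against 5.68% of all genes. *KCNA1* ranged from 4.15 to 67.1 TPM in controls with a median of 32.1 TPM, and from 14.9 to 58.1 TPM in HD* animals with a median of 37.4 TPM. *KCNA4* had medians of 57.0 and 63.1 TPM, *KCNQ5* of 37.5 and 39.2 TPM and *KCNH1* of 9.38 and 9.43 TPM. The group ranges overlapped for each gene. The lowest HD animal of *KCNA1* lay above 5 of the 8 controls, and the highest VHD animal below 4 of them.

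Differences between HD* and controls ran from −0.24 for *KCNA2* to 0.25 for *KCNA4*, with SEs of 0.15 to 0.47. Among the 7 genes, the 95% confidence interval was narrowest for *KCNQ3* (−0.33 to 0.29), followed by *KCNC1* (−0.56 to 0.26), and widest for *KCNQ5* (−0.85 to 1.09). The signs were not stable. Without control 6 the differences were −0.22 for *KCNA1*, −0.11 for *KCNA4* and −0.26 for *KCNQ5*, against 0.13, 0.25 and 0.12 with all animals. The median over all genes was −0.12, and 0.00094 after TMM rescaling. The 6 lists of related genes held no call either. Their genes of smallest p were *KCNA6* (−0.30), *KCNC4* (−0.50), *KCNQ1* (−0.31), *KCNH8* (−0.36), *EPB41L3* (−0.39) and *GNAQ* (−0.26), each with an adjusted p of 0.706.

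Within cohort 5, HD* animals minus controls gave −0.50 for *KCNA1*, −0.37 for *KCNA4*, −0.75 for *KCNQ5* and −0.39 for *KCNH1*. Within cohort 7a the differences were 0.067, 0.25, 0.10 and −0.024. Exact two-sided permutation tests, with adjusted p over 16 tests, gave 0.975 or more throughout. With 4 HD* animals against 3 controls in cohort 5 and against 2 in cohort 7a, these tests could not reach a p under 0.05. No difference of the HD* effect between the cohorts passed in a test of the interaction (adjusted p of 1.00 for the 7 genes, 0% of all genes called, 2.16% at an unadjusted p under 0.05). Cohort itself gave no call either (0% of all genes, 8.36% unadjusted), with the smallest unadjusted p among the 7 genes at 0.0468 for *KCNQ3*, whose mean was 32.6 ± 4.04 TPM in cohort 4 (2 LD* animals), 42.7 ± 5.21 TPM in cohort 5, 38.0 ± 7.79 TPM in cohort 7a and 35.3 ± 8.15 TPM in cohort 7b.

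No difference between LD* animals and controls passed for any of the 7 genes, nor did any between HD* and LD* animals (0% of all genes called in each, 2.84% and 1.08% at an unadjusted p under 0.05, none of the 7). These comparisons share animals with the one above. LD* animals ranged from 18.0 to 56.2 TPM for *KCNA1*, from 29.6 to 110.1 TPM for *KCNA4* and from 5.16 to 14.9 TPM for *KCNH1*, within the spread of the controls. Differences from controls ran from −0.089 for *KCNA2* to 0.41 for *KCNQ5*. Without control 6, *KCNQ5* was at 0.036, *KCNA4* at 0.027 in place of 0.39 and *KCNA1* at −0.010 in place of 0.34. Differences between HD* and LD* ran from −0.30 for *KCNH1* to −0.030 for *KCNQ3*. LD* and HD* animals met only in cohort 7a, and with cohort as a covariate these differences were −0.96 for *KCNQ5*, −0.77 for *KCNA1*, −0.71 for *KCNA4*, −0.64 for *KCNH1*, −0.54 for *KCNA2* and −0.34 for *KCNQ3*, each with an adjusted p of at least 0.641. That of *KCNC1* did not grow, at −0.16 with the covariate (adjusted p = 0.816) and −0.18 without it. *KCNH7* had its highest value, 1.50 TPM, in an LD* animal of cohort 7b, with a difference from controls of 0.13 (adjusted p = 1.00).

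Among drinkers, no gene changed with daily intake at the threshold. The slope was taken within LD* and HD* (16 animals) and called 0% of all genes, with 8.12% at an unadjusted p under 0.05 and none of the 7. Slopes per g/kg were −0.67 for *KCNQ5* (SE 0.38, adjusted p = 0.498), −0.59 for *KCNH1* (SE 0.29, adjusted p = 0.498), −0.59 for *KCNA4* and −0.52 for *KCNA1*, and 0.15 for *KCNQ3*. LD animal 2, at 0.47 g/kg the lowest drinker, moved them most. Without it the slopes were −1.46 for *KCNQ5*, −1.04 for *KCNH1*, −1.56 for *KCNA4* and −1.27 for *KCNA1*, with adjusted p-values of at least 0.294. In the 8 HD* animals *KCNA1* had the strongest Spearman correlation with intake of the 8 genes, at −0.72, and a Pearson correlation of −0.49 (exact permutation, adjusted p over 16 relations of 0.293 and 0.451). The latter was −0.80 without the 2 animals farthest from the median intake. HD animals drank 2.74 to 3.09 g/kg and VHD animals 3.09 to 3.78 g/kg. A relation to intake within HD* therefore cannot be told apart from the VHD against HD difference in the same 8 animals. With cohort as a covariate the slopes were −1.17 for *KCNQ5*, −1.01 for *KCNH1*, −1.13 for *KCNA4* and −0.91 for *KCNA1*, again with no call. Within a cohort neither drinking group had more than 4 animals, so no correlation was taken within cohorts.

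Across the 24 animals, 4 of the genes varied nearly in parallel. The Pearson correlation of log2(TPM + 1) was 0.99 between *KCNA1* and *KCNA4*, 0.98 between *KCNA1* and *KCNQ5* and 0.98 between *KCNA4* and *KCNQ5* (Spearman 0.98, 0.97 and 0.97). *KCNH1* followed these 3 genes at 0.93 to 0.94 (Spearman 0.95 to 0.96). Permutation tests of the 28 pairs gave an adjusted p of 0.00003 for each of these 6, the smallest that 100000 permutations and 28 pairs allowed here. These pairs stayed at 0.94 or more without control 6 and at 0.92 or more within cohorts 5, 7a and 7b. The TPM ratio of *KCNA4* to *KCNA1*, looked at after the correlations were known, lay between 1.43 and 2.22 in all 24 animals, including 1.83 in control 6.

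The other genes were looser. *KCNA2* correlated with *KCNH1* at 0.87 and with *KCNA1* at 0.75 (Spearman 0.85 and 0.80, adjusted permutation p of at most 0.00006). *KCNQ3* correlated with *KCNA1* at 0.70 (Spearman 0.55, adjusted permutation p = 0.00056 and 0.0125), and at 0.45 without the 2 animals farthest from the median of *KCNA1*. *KCNC1* correlated with *KCNA1* at 0.26 over all animals (Spearman 0.27, adjusted permutation p = 0.305 and 0.269), with −0.56 within cohort 7b, 0.20 within cohort 5 and 0.86 within cohort 7a. Without control 6 the value was 0.61, and without the 2 animals farthest from the median of *KCNA1* it was 0.59. *KCNH7* correlated with *KCNC1* at 0.39 (Spearman 0.47, adjusted permutation p = 0.0875 and 0.0396), its highest value among the other 7 genes.

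The same 4 genes tracked the score of projection neuron markers, at a Pearson r of 0.96 for *KCNA1*, 0.96 for *KCNA4*, 0.94 for *KCNQ5* and 0.83 for *KCNH1* (Spearman 0.97, 0.94, 0.93 and 0.91, adjusted permutation p of 0.00014 for each over 72 relations). Without the 2 animals farthest from the median score the values were 0.95, 0.95, 0.90 and 0.83. *KCNQ3* and *KCNA2* were related to it less closely, at 0.69 and 0.62 (Spearman 0.51 and 0.71, adjusted permutation p of at most 0.034), and at 0.36 and 0.63 without the 2 farthest animals. Among all genes tested, 4.43% reached 0.8 with that score and 1.71% reached 0.9. *KCNA1*, *KCNA4*, *KCNQ5* and *KCNH1* had negative r with the astrocyte score (−0.75 to −0.65) and the microglia score (−0.73 to −0.70). Their adjusted permutation p was at most 0.0033. *KCNC1* did not follow the projection neuron score over all animals (r = 0.066, Spearman 0.20, adjusted permutation p = 0.855 and 0.485), but r was 0.45 without control 6 and 0.42 without the 2 farthest animals. With the general neuron score *KCNC1* had an r of 0.92 (Spearman 0.89, adjusted permutation p = 0.00014), and at 0.85 to 0.96 within cohorts 5, 7a and 7b. With the interneuron score its r was 0.69 (Spearman 0.71, adjusted permutation p = 0.00077 and 0.00091), and 0.53 without the 2 farthest animals. Of all genes, 14.8% reached 0.6 with the interneuron score. With the oligodendrocyte precursor score *KCNC1* had a higher r, at 0.79 (Spearman 0.61, adjusted permutation p = 0.00018 and 0.00817), and 31.6% of all genes reached 0.6. *KCNH7* had an r of −0.24 with the projection neuron score. With the interneuron score its r was 0.48 (Spearman 0.69, adjusted permutation p = 0.0523 and 0.00117). With the general neuron score r was 0.52 (adjusted permutation p = 0.0298), a score with which 31.0% of all genes reached 0.6, and with the cortical excitatory score 0.56, or 0.29 without the 2 farthest animals. For *KCNH7* and the oligodendrocyte precursor score r was likewise 0.52 (Spearman 0.57, adjusted permutation p = 0.0298 and 0.0148). At the low levels of *KCNH7* the order of the animals carries little weight.

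**Figure D4:**
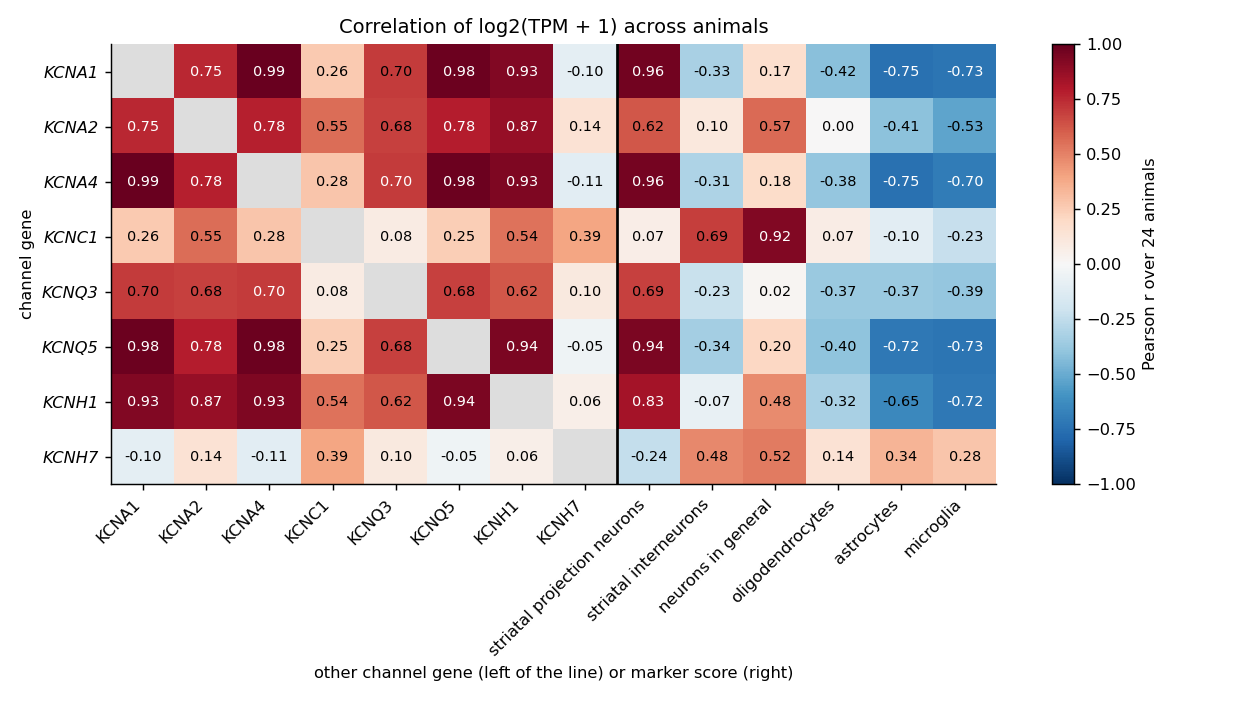
Pearson correlation of log2(TPM + 1) over the 24 animals, each row being 1 of the 8 genes and each column another of them (left of the line) or a marker score (right). *KCNA1*, *KCNA4*, *KCNQ5* and *KCNH1* form a block of 0.93 to 0.99 and reach 0.83 to 0.96 with the projection neuron score, while *KCNC1* reaches 0.92 with the general neuron score.

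**Figure D5:**
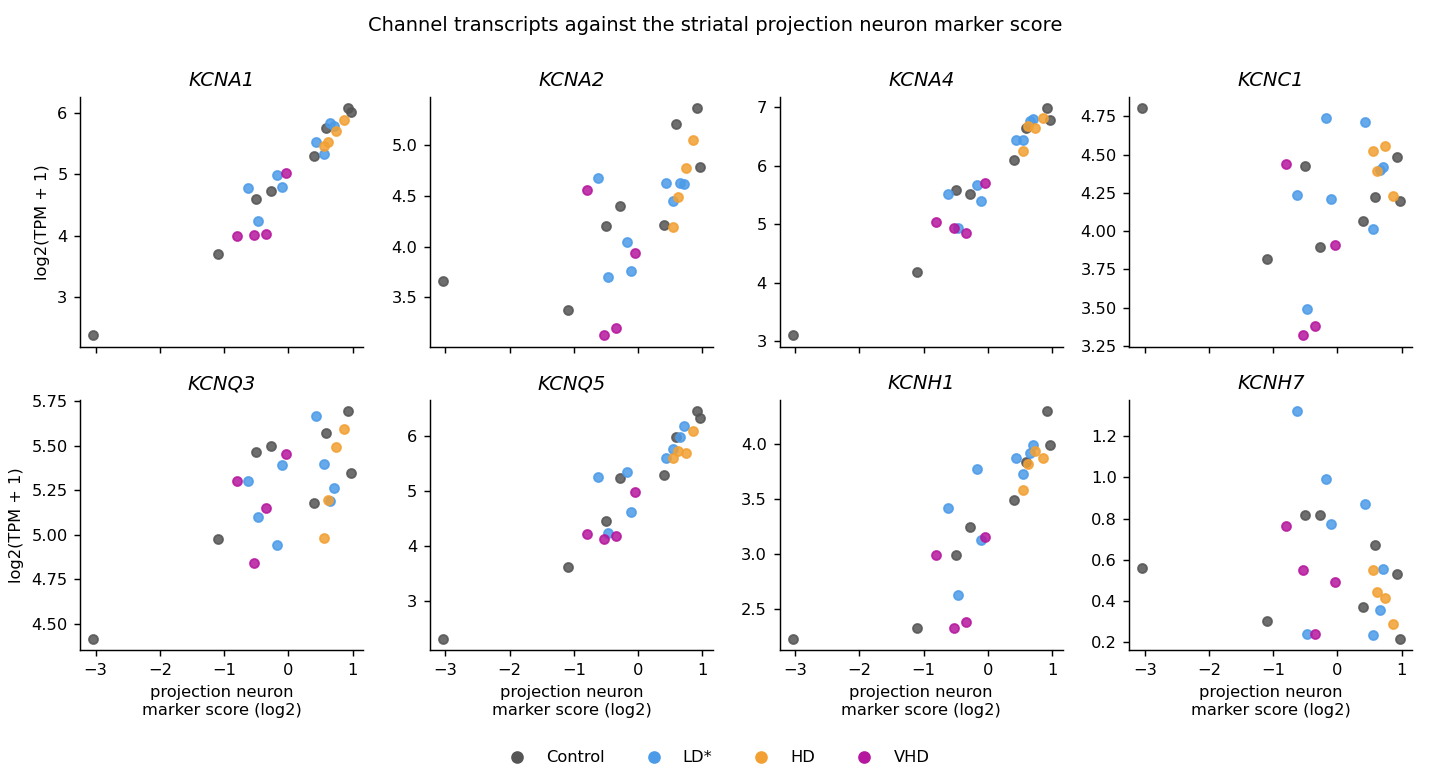
Log2(TPM + 1) of each gene against the projection neuron marker score, 1 point per animal, colored by group. The points of *KCNA1*, *KCNA4* and *KCNQ5* run along a line from control 6 at a score of −3.04 to 0.97, the VHD animals lie left of the HD animals, and *KCNC1* shows no such line.

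Genes whose pattern over the 24 animals was most like that of each channel gene differed accordingly. For *KCNA1* they were *KCNA4*, *WASF1* and *RBFOX1* (Pearson r of 0.99 each, Spearman 0.97 to 0.98), for *KCNA4* *PDE7B*, *PPP3CA* and *KCNA1* (0.99 each, Spearman 0.97 to 0.98) and for *KCNQ5* *RPS6KA5*, *NETO2* and *HOMER1* (0.98 to 0.99, Spearman 0.95 to 0.97). For *KCNH1* they were *REPS2*, *MACROD2* and *UBE3C* (0.98 each, Spearman 0.96 to 0.99). *KCNA2* was closest to *ZBTB21*, *ITSN2* and *C14orf37* (0.95 to 0.96, Spearman 0.93 to 0.95) and *KCNC1* was close to *NOVA1* and *EIF4G1* (0.95 and 0.94, Spearman 0.92 and 0.86). *KCNQ3* had no gene at 0.9 or more, its nearest being *DGKH*, *CAMK1D* and *PURB* (0.83 to 0.85, Spearman 0.75 to 0.85). *KCNH7* had none either, with *MEF2C*, *DOC2A* and *KCNJ3* nearest (0.85 to 0.87, Spearman 0.78 to 0.81). Genes at 0.9 or more numbered 614 for *KCNH1*, 357 for *KCNA4*, 355 for *KCNA1*, 335 for *KCNQ5*, 129 for *KCNA2* and 89 for *KCNC1*. All 24 animals enter each value, and no test was made of these lists.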

How the data were processed

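RNA from the NAcc core of 24 rhesus macaques had been sequenced as polyA-selected libraries by the authors, aligned to the MacaM assembly with STAR 2.5.2b keeping uniquely aligned reads, counted on genes with HTSeq 0.6.1p1 and tested with DESeq2. Libraries are described as strand-specific. Paired-end reads are named in the methods and sample protocols and single-end reads in the design text, and the strand setting of the counting is not given in the sources used here, so reads of a gene and an antisense partner may not be told apart. The deposited values, normalized by the authors, were taken as TPM because each animal's values sum to 999998 to 1000000. The gene lengths used are not given in the sources used here, so the correction for length could not be checked. The reads behind each animal's values can therefore not be recovered, and count models were not used. Categories, cohorts and intake are those of the labels, which do not number the animals; numbers here follow the order of the samples. Nothing in the labels says that a library was repeated, so the spread is that between animals measured once.

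Genes whose mean reached 1 TPM (13637) were tested as log2(TPM + 1) with limma 3.58.1 in R 4.3.3 (empirical Bayes with a trend), with Benjamini-Hochberg adjustment over all of them and a threshold of 0.05. The 3 contrasts among controls, LD* and HD* came from 1 model, and VHD against HD from the 8 HD* animals alone. Intake, cohort and the interaction of HD* with cohort had models of their own. *KCNH7*, below the filter, was taken from fits without it. Within cohorts exact permutation tests were used, and correlations had 100000 permutations, or exact ones for 8 animals (Python 3.11.15, numpy 2.4.6, scipy 1.17.1, pandas 2.3.3, matplotlib 3.10.9). The limma step was tested on simulated data. Alternatives were pseudocounts of 0.1 and 8, no filter and one of 10 TPM, array weights, TMM rescaling (from each end 30% of M-values and 5% of A-values were trimmed), cohort as a covariate, only the compared groups, cohorts 5 and 7a alone, and each animal left out in turn. Named genes are the 8 channel genes, the 3 genes of highest Pearson r for each, and from each related list the genes with an adjusted p under 0.05, the one of highest mean and the one of smallest p in HD* against controls. Some genes that this rule names are not reported here. The genes and lists were chosen with earlier results of these data known. *KCNV2*, *KCNH4*, *KCNE5* and *PECAM1* were not analysed here. All 8 genes were found in the RefSeq gene table, whose assembly differs from MacaM, so no coordinates are given.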

Additional observations from a re-analysis of the deposited data

Results flagged for a closer look

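In 2 of 40 combinations of gene and group looked at, 1 animal stood apart from the others of its group by Dixon's test at the 95% level, which chance gives in about 1 of 20 groups. Both concern VHD animal 1 of cohort 5, the animal with the highest intake (3.78 g/kg). *KCNA1* was at 31.6 TPM in it against 14.9 to 15.3 TPM in the other VHD animals, and *KCNQ5* at 30.7 TPM against 16.4 to 17.8 TPM. Its projection neuron score was −0.042, against −0.80 to −0.34 in the other 3. Without this animal, the VHD minus HD difference was −1.64 for *KCNA1* and −1.59 for *KCNQ5*. The part of the marker score in these values was not tested.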

How the results depend on the processing

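The calls of *KCNA1*, *KCNA4* and *KCNQ5* as lower in VHD animals held under all 7 other settings and each of 8 omissions of an animal. The number of genes called in that comparison was 7613 with array weights and 476 to 4651 with an animal left out (476 without VHD animal 3, 607 without HD animal 3, 681 without HD animal 2, 723 without HD animal 4, 1094 without HD animal 1 and 4651 without VHD animal 2). Of the 8 genes, 3 to 6 were then called. *KCNA2* (−0.92 and −1.33) passed with cohort as a covariate and with array weights, and *KCNC1* (−1.02) with array weights. TMM rescaling turned *KCNQ3* to 0.046 there, and to 0.12 for HD* against controls, 0.055 for HD* against LD* and 0.064 for the interaction with cohort. No gene of the 7 was called in any other comparison under any setting, but signs changed. For HD* against controls, *KCNH1* was 0.073 after TMM rescaling. With cohort as a covariate the values were −0.21 for *KCNA1*, −0.073 for *KCNA4* and −0.26 for *KCNQ5*, and in cohorts 5 and 7a alone −0.25, −0.10 and −0.38. With array weights *KCNC1* was 0.10, *KCNQ5* −0.011 and *KCNH1* 0.012. For LD* against controls, *KCNA2* was 0.17 and *KCNC1* −0.014 with cohort as a covariate, and *KCNQ3* −0.071 with array weights. For HD* against LD* with array weights, *KCNA1* was 0.0055, *KCNA2* 0.012 and *KCNA4* 0.038. The intake slope of *KCNQ3* was −0.11 with cohort as a covariate. The causes were not tested.

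With an animal left out, HD* against controls ran from −0.22 to 0.31 for *KCNA1*, −0.11 to 0.45 for *KCNA4*, −0.14 to 0.044 for *KCNQ3*, −0.26 to 0.33 for *KCNQ5* and −0.20 to 0.098 for *KCNH1*, the lowest each time without control 6. LD* against controls ran from −0.010 to 0.52 for *KCNA1*, −0.24 to 0.049 for *KCNA2*, −0.029 to 0.15 for *KCNC1* and −0.11 to 0.074 for *KCNQ3*. HD* against LD* ran from −0.27 to 0.0025 for *KCNA2*, −0.29 to 0.011 for *KCNA4* and −0.078 to 0.029 for *KCNQ3*. The intake slope of *KCNQ3* ran from −0.025 to 0.22, and 1 gene was called for intake without LD animal 2, against 0 in all other omissions. No paired analysis was possible because the animals are unrelated and each was measured once, in 1 group. TPM do not keep each animal's depth, so no counting error can be given for low values such as those of *KCNH7*.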
